A study of Mus musculus with 24 samples.

Results

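The G2 and mitosis genes described here are 45 mouse genes, chosen by name as genes of G2 and mitosis and found by their Ensembl identifiers in the RNA-Seq counts of NIH 3T3 cells, a mouse embryonic fibroblast line that was immortalized in culture. All 45 had a mean of at least 5 counts per library and so were among the 14361 genes tested, out of 39017 identifiers counted. The 24 libraries fell into 8 groups of 3. EV cells carried the empty vector, TAZ4SA and YAP5SA cells carried full-length TAZ or YAP in which serines that the Hippo kinase LATS phosphorylates are changed to alanine, and TAZ-CAMTA1 and YAP-TFE3 cells carried the fusion proteins of TAZ with CAMTA1 and of YAP with TFE3. TFE3 and CAMTA1 cells carried the full-length fusion partners. EV, TAZ4SA, YAP5SA, TAZ-CAMTA1, YAP-TFE3 and TFE3 cells had been confluent for 48 h when collected. CAMTA1 cells were collected at sub-confluence, which the labels say of no other construct, while the methods say it of lines containing CAMTA1, a wording that could take in TAZ-CAMTA1. EVsub is a second empty vector group whose titles say sub-confluent. All lines, controls included, were transduced with a retroviral vector, selected with G418 and kept as stable pools. A construct expressed from the vector does not follow the regulation of the cell's own gene. By the methods the 3 replicates of a group were transduced and selected apart, so the spread between them includes that between transductions of the same parental line.

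Entry into mitosis is set off by Cdk1 bound to A- and B-type cyclins. Plk1 and the Aurora kinases then drive centrosome maturation and spindle assembly, the Ndc80 complex ties microtubules to kinetochores, and the spindle checkpoint restrains Cdc20 until chromosomes are attached. Cdc20 and the anaphase-promoting complex, with the ubiquitin-conjugating enzyme Ube2c, then mark cyclins and securin for destruction, and Prc1, centralspindlin, Ect2 and anillin organize the central spindle and the cleavage furrow. Transcripts of these genes peak together in G2 and mitosis and are repressed in quiescence through promoters that hold a cell cycle genes homology region (CHR), which the MuvB core binds in the DREAM complex and in complexes with B-Myb and FoxM1, often near CCAAT boxes bound by NF-Y. TAZ and YAP act through TEAD factors, and normal fibroblasts stop dividing at confluence, when the Hippo pathway is active.

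The promoters are what the members share in sequence, and 7 of them are printed because they show where CHR matches and CCAAT boxes lie in such promoters. For Anln and for the Ect2 start that is printed, they also show that CHR matches can lie outside the stretch just before the start. RefSeq promoter windows of GRCm38.p6 (mm10), 250 bases before the transcription start and 50 after, were found for 36 of the 45 members. Each line gives the 120 bases just before the RefSeq start, 5′ to 3′ on the gene's strand, with CHR matches (TTTGAA, its reverse complement TTCAAA, or the variant TTCGAA, which reads the same on both strands) and CCAAT boxes (CCAAT or ATTGG) in capitals.
Cdk1: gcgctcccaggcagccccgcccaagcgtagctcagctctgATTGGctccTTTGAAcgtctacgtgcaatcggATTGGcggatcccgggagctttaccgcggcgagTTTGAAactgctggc
Cdc20: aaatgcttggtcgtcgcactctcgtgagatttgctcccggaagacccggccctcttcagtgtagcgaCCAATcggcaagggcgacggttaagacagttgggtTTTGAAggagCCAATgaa
Top2a: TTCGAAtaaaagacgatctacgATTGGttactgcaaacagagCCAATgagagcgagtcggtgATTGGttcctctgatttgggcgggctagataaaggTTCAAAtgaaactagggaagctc
Kif11: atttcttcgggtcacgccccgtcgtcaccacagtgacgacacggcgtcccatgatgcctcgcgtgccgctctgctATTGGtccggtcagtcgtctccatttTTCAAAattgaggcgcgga
Ect2: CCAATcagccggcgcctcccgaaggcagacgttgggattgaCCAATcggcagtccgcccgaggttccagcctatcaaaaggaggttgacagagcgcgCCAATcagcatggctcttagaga
Mki67: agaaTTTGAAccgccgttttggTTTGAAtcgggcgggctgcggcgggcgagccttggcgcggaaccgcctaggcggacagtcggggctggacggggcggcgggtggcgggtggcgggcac
Anln: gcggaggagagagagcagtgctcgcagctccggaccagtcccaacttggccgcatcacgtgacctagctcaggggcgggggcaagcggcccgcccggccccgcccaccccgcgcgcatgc
These windows lie at chr10:69352913-69353032 on the minus strand (Cdk1), chr4:118437344-118437463 on the minus strand (Cdc20), chr11:99024190-99024309 on the minus strand (Top2a), chr19:37376262-37376381 on the plus strand (Kif11), chr3:27153855-27153974 on the minus strand (Ect2), chr7:135716380-135716499 on the minus strand (Mki67) and chr9:22389207-22389326 on the minus strand (Anln). Cdk1 held a CHR match that began at -15 from the start and a second at -71, with CCAAT boxes at -80 and -48. Cdc20 held its CHR match at -18 with CCAAT boxes at -53 and -8, and Kif11 held a reverse-strand match at -19. Mki67 held 2 CHR matches and no CCAAT box in the printed stretch, and Anln held neither there, its CHR matches beginning at 22 and 29 after the start. Ect2 has 2 RefSeq starts, of which 1 is printed. In that stretch it held 3 CCAAT boxes and no CHR match, its CHR matches beginning at -138 and 16. Counted from the other start they begin at -114 and 40, so that 1 of them lies within the 120 bases before it.

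A CHR match or its variant on either strand was present in the windows of 28 of the 36 members (77.8%), against 21.7% of the 27025 genes in the table. A CCAAT box was present for 27 members (75.0%) against 41.1% of all genes, at least 2 were present for 19 members (52.8%) against 13.3%, and both a CHR match and a CCAAT box were present for 24 members (66.7%) against 8.61%. The CHR matches lay close to the start. Within 50 bases on either side of it, 28 of the 38 windows of members (a gene with 2 starts has 2 windows) held a match (73.7%), against 5.31% of all 32851 windows. The TEAD motif GGAATG was found for 5 members (13.9%) and in 16.6% of all genes, and the E-box CACGTG for 3 members (8.33%) and in 8.09%, so for those motifs the share of members was near that of all genes. A match is a run of letters and was not measured as a binding site. Some RefSeq starts lie a few bases from the gene starts of the GENCODE annotation, but others lie farther away. The Kif2c window ran from 117178723 to 117179022 on the minus strand, and its GENCODE start was at 117182639. The Cdca8 window ran from 124936868 to 124937167 on the minus strand, and its GENCODE start was at 124939311. Motif matches and positions therefore refer to the RefSeq starts, and some windows do not hold the GENCODE start.

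**Figure D1:**
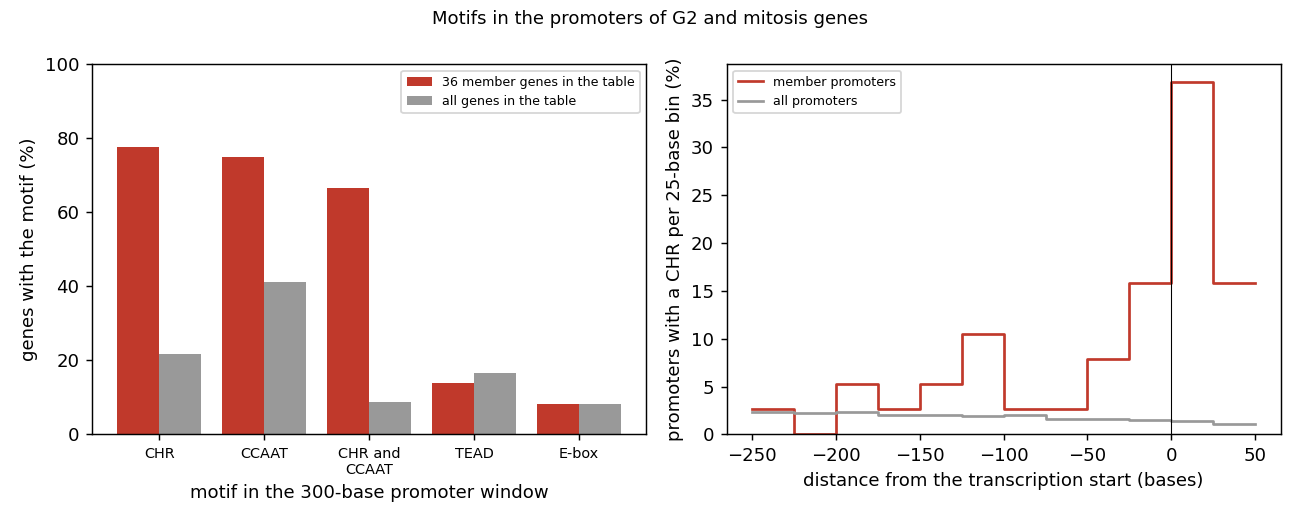
Left, percent of genes whose 300-base promoter window holds each motif on either strand, for the 36 members in the RefSeq table (red) and for all genes in it (grey). Right, percent of promoter windows with a CHR match in each bin of 25 bases, by distance from the transcription start. The CHR share of members was 77.8% against 21.7% and their matches gathered around the start, while TEAD and E-box shares were close in both sets.

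Library totals ranged from 16471181 to 30132586 counts, and all 8 fibroblast markers examined had a mean of at least 5 counts. Of 5 epithelial markers Epcam was at 0 in every library and only Cdh1 had such a mean. The mitochondrial share of counts was 3.80 to 4.10% in EV and overlapped it in TAZ-CAMTA1, YAP-TFE3 and CAMTA1. It was 2.04 to 2.23% in YAP5SA, 2.95 to 3.19% in TAZ4SA, 2.75 to 3.19% in EVsub and 4.69 to 5.87% in TFE3, and its part in the results was not tested. Summed over the 45 members, the EV libraries held 780, 1633 and 824 CPM (counts scaled to the TMM-normalized library size, the usual CPM), EVsub 4460, 6403 and 2011 CPM, and CAMTA1 5108, 3932 and 3507 CPM. The sums were 1981, 2712 and 2955 CPM in TAZ-CAMTA1, 1263, 1501 and 2559 CPM in TAZ4SA, and 1338, 1494 and 1975 CPM in YAP5SA. They were 1394, 1521 and 1214 CPM in YAP-TFE3 and 981, 1087 and 980 CPM in TFE3. The sub-confluent groups were highest and EV and TFE3 lowest, but 3 libraries stood apart from the others of their group. EV replicate 2 held as much as the middle of the YAP5SA range, EVsub replicate 3 held less than every CAMTA1 library, and TAZ4SA replicate 3 held more than the other two of its group. Counts of members called are given with and without them, and counts for the other gene lists with all libraries. In bulk RNA, fewer cells in G2 and mitosis and less of these transcripts per cell cannot be told apart.

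**Figure D2:**
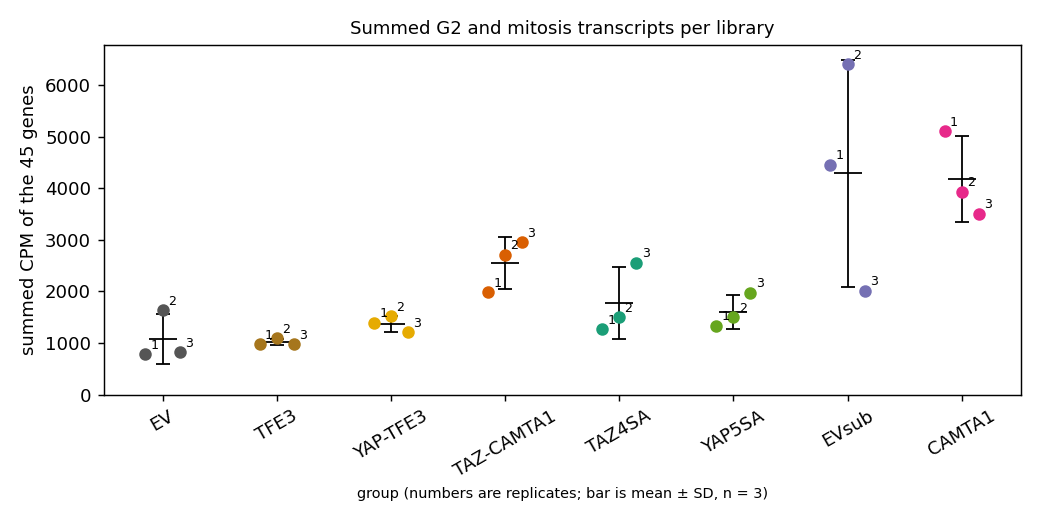
Summed CPM of the 45 G2 and mitosis genes in each library, with the replicate number beside each point and a bar for the group mean ± SD (n = 3). EV replicate 2 (1633 CPM) stood above the other EV libraries, EVsub replicate 3 (2011 CPM) below the other EVsub libraries and TAZ4SA replicate 3 (2559 CPM) above the other TAZ4SA libraries.

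The members moved as a block between libraries of the same group as well. When each group's mean log2 CPM was taken out, the Pearson correlation of a member with the mean of the other members over the 24 libraries ranged from 0.84 to 0.98 with a median of 0.94, which is a description, since all members are read from the same libraries and scaled together. Per kilobase of exon, Cdc20 had the highest level of the members in EV (16.1 CPM per kb), followed by Top2a (12.2) and Cdk1 (9.13), and Cdc25c had the lowest (0.629). In EVsub the order again began with Cdc20 (82.7 CPM per kb) and Top2a (43.3), and it ended with Kif15 (2.68). In both orders, each gene and the next differed by less than the larger of their SDs.

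**Figure D3:**
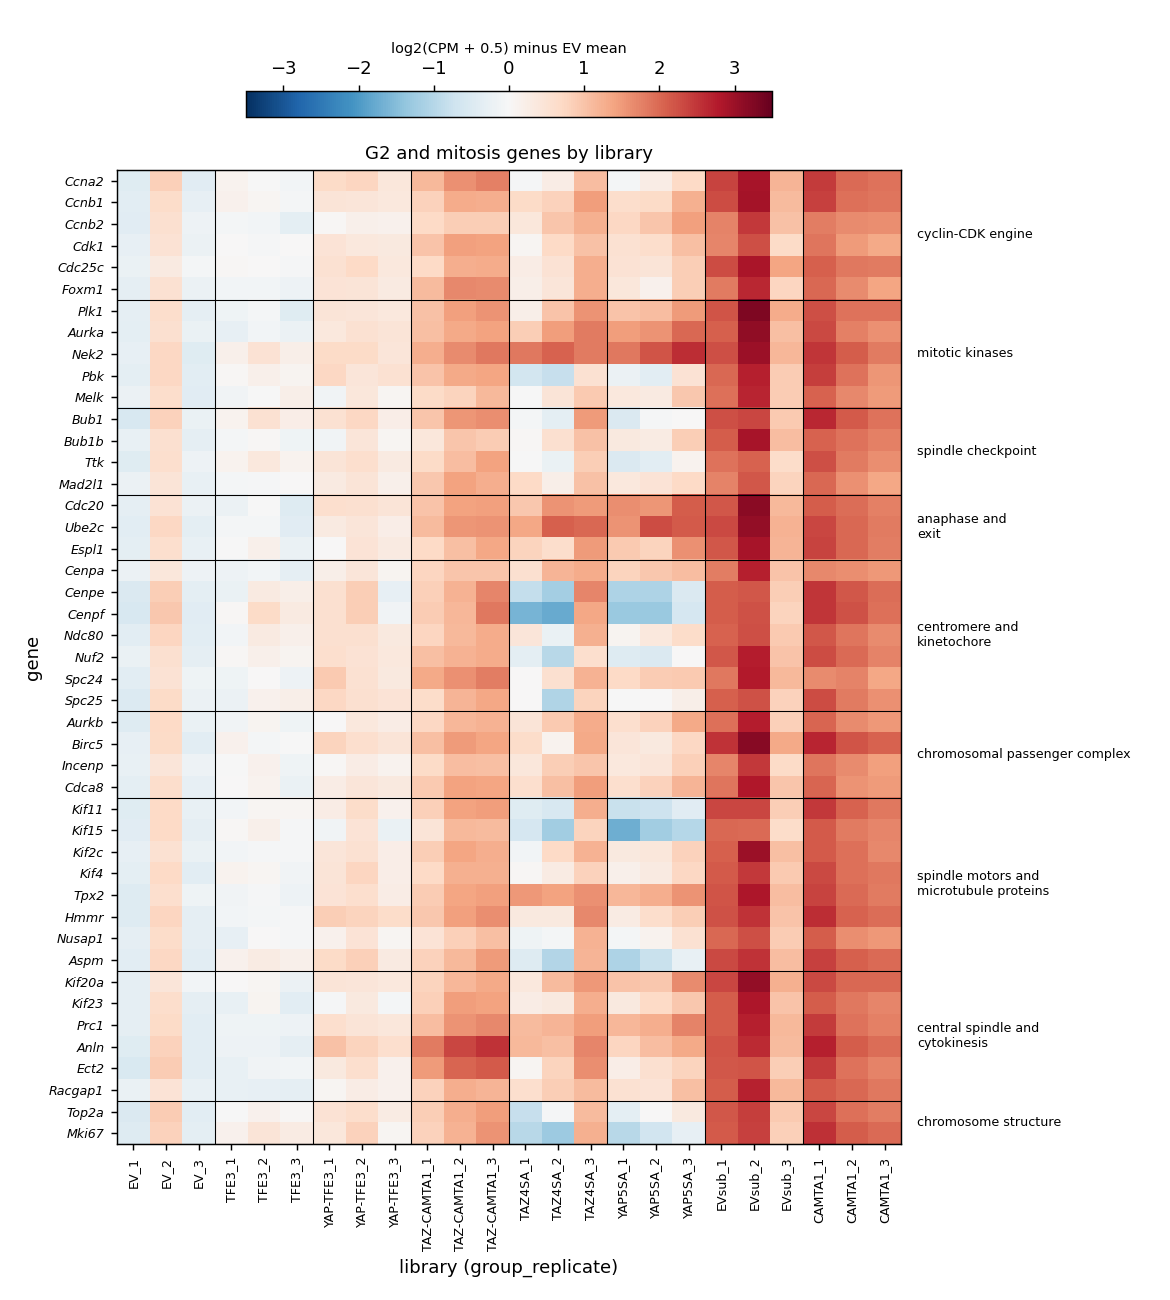
Each row is a member, grouped by role, and each column a library (group and replicate). Colour is log2(CPM + 0.5) minus the mean of the EV libraries, from blue (lower) to red (higher). EVsub and CAMTA1 columns are red throughout, TAZ-CAMTA1 columns are red in every role, and in the YAP5SA columns Cenpe, Cenpf and Kif15 are blue while Nek2, Ube2c and Cdc20 are red.

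At sub-confluence every member was higher than at confluence in cells with the empty vector. All 45 rose in EVsub against EV, where 22.1% of all tested genes were called, 12.5% rising and 9.59% falling (edgeR's quasi-likelihood test, Benjamini-Hochberg adjusted p under 0.05 over all tested genes). The median member change was a log2 fold change of 2.01, a 4.03-fold rise, and the median of all genes was 0.02. The highest was Birc5, survivin, the chromosomal passenger subunit that brings Aurora B to centromeres, at 8.32, 16.8 and 7.83 CPM in EV and 61.8, 97.2 and 26.8 CPM in EVsub. Every EVsub library was above every EV library, with a log2 fold change of 2.50 (SE 0.36, edgeR adjusted p = 5.31e-05). The lowest was Kif15, a spindle kinesin, at 6.71, 14.99 and 7.12 CPM in EV and 37.7, 36.8 and 14.2 CPM in EVsub, where EVsub replicate 3 lay below EV replicate 2. Its log2 fold change was 1.63 (SE 0.41, edgeR adjusted p = 0.00643). Without EV replicate 2 or without EVsub replicate 3 all 45 members were called, and leaving out any 1 library kept 42 or more.

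Genes around the members, from lists drawn up by function, moved unevenly between these groups, where 12.5% of all genes rose and 9.59% fell. Of 19 other spindle proteins 17 rose, led by Troap at a log2 fold change of 2.38 (SE 0.36, edgeR adjusted p = 9.84e-05), and of 27 genes of the inner centromere and outer kinetochore 21 rose, led by Ska1 at 2.37 (SE 0.41, edgeR adjusted p = 0.000274). Of 20 S-phase genes, a reference for the phase before, 16 rose. Condensin and cohesin genes rose in 12 of 21, and subunits of the anaphase-promoting complex with Fzr1 in 6 of 17. Of 12 DREAM and MuvB regulators 5 rose, among them Mybl2 (B-Myb, the activating partner of MuvB) at 1.78 (SE 0.36, edgeR adjusted p = 0.00128), and 1 fell, Rbl2 (p130, the pocket protein of DREAM) at -0.60 (SE 0.10, edgeR adjusted p = 0.000264). Of 12 CDK1 regulators 8 rose, led by Gtse1 at 2.31 (SE 0.38, edgeR adjusted p = 0.000177), and 1 fell, Arpp19 (an inhibitor of the phosphatase PP2A-B55) at -0.30 (SE 0.10, edgeR adjusted p = 0.0457). Of 10 centrosome genes 7 rose. Summed fibroblast markers were at 35105 to 38785 CPM in EV and 24420 to 37583 CPM in EVsub, with 3 of 8 called as falls, and no epithelial, endothelial or leukocyte marker was called. Their part in the rise was not tested.

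Between sub-confluent CAMTA1 cells and EVsub no difference was detected for any member. None of the 45 passed the test, where 2.18% of all genes did, none had an unadjusted p under 0.05, and DESeq2 called none either. The log2 fold changes ran from -0.51 for Spc24 to 0.41 for Cenpe with a median of -0.13. Spc24, a subunit of the Ndc80 complex, was at 13.03, 25.3 and 7.78 CPM in EVsub and 11.4, 11.99 and 9.15 CPM in CAMTA1 (log2 fold change -0.51 (SE 0.32, edgeR adjusted p = 0.404)). Cenpe, the kinetochore kinesin, was at 108, 111 and 44.5 CPM in EVsub and 142, 112 and 96.5 CPM in CAMTA1 (log2 fold change 0.41 (SE 0.52, edgeR adjusted p = 0.700)). For both genes the groups overlapped. With 3 libraries per group and the spread of EVsub, these standard errors leave room for changes of either sign.

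Confluent cells with TAZ-CAMTA1 held more of these transcripts than confluent cells with the empty vector. Of the members, 34 rose and none fell against EV, where 21.5% of all genes were called, 12.5% rising and 8.98% falling. All 45 were positive in direction and had an unadjusted p under 0.05, with a median log2 fold change of 1.18 (2.27-fold), against -0.0041 over all genes. The highest was Anln, anillin, the scaffold of the cleavage furrow, at 34.96, 82.3 and 36.6 CPM in EV and 167, 239.6 and 274 CPM in TAZ-CAMTA1, with no overlap and a log2 fold change of 2.15 (SE 0.34, edgeR adjusted p = 6.45e-05). The lowest was Bub1b (BubR1, of the spindle checkpoint), at 19.8, 35.7 and 19.2 CPM in EV and 31.8, 47.4 and 44.5 CPM in TAZ-CAMTA1, where EV replicate 2 lay above TAZ-CAMTA1 replicate 1. Its log2 fold change was 0.73 (SE 0.32, edgeR adjusted p = 0.115). All 6 genes of the central spindle and cytokinesis rose, as did all 4 of the chromosomal passenger complex, all 3 of anaphase and exit, 5 of 6 of the cyclin and Cdk1 group and 4 of 5 mitotic kinases, while 5 of 8 spindle motors and microtubule proteins and 4 of 7 of the centromere and kinetochore did. Neither Top2a nor Mki67 passed. The density at which the TAZ-CAMTA1 cells were collected rests on the labels, as given above, and its part in this result was not tested.

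The number of members called in TAZ-CAMTA1 rested on single libraries. It was 45 without EV replicate 2, 13 without EV replicate 1 or replicate 3, 19 without TAZ-CAMTA1 replicate 2 and 18 without TAZ-CAMTA1 replicate 3. None fell in any of these. The number of all genes called moved too, from 3088 of 14361 with all libraries to 3198 without EV replicate 2. It was 2031 and 2010 without EV replicates 1 and 3, and 2028 and 2045 without TAZ-CAMTA1 replicates 2 and 3. Around the members, where 12.5% of all genes rose, 11 of 19 other spindle proteins did, 8 of 27 inner centromere and outer kinetochore genes, 6 of 20 S-phase genes (led by Rrm2 at a log2 fold change of 1.67 (SE 0.38, edgeR adjusted p = 0.00283)), 5 of 12 CDK1 regulators and 5 of 10 centrosome genes (led by Cep55, of abscission, at 2.30 (SE 0.44, edgeR adjusted p = 0.000612)). Of the anaphase-promoting complex with Fzr1 1 of 17 rose, and of condensin and cohesin 3 of 21, shares of 5.88% and 14.3%. Of the DREAM and MuvB regulators 4 rose and 1 fell. Mybl2 rose by a log2 fold change of 1.51 (SE 0.36, edgeR adjusted p = 0.00425), and Rbl2 fell, with -0.32 (SE 0.10, edgeR adjusted p = 0.0281). Ccnd1 (cyclin D1, a G1 cyclin placed on the growth arrest list) rose by 2.79 (SE 0.37, edgeR adjusted p = 9.29e-06). Of the same list Ccng2 (cyclin G2) had the largest fall, with a log2 fold change of -0.60 (SE 0.19, edgeR adjusted p = 0.0234). Against EV, Ccng2 also fell in EVsub, with -1.01 (SE 0.19, edgeR adjusted p = 0.000568), and in YAP-TFE3, with -0.55 (SE 0.19, edgeR adjusted p = 0.0471). Ccnd1 also rose in EVsub, by 1.19 (SE 0.35, edgeR adjusted p = 0.0192). Markers of other cell types moved in TAZ-CAMTA1 too. The summed endothelial markers (2 of 4 with a mean of at least 5 counts) were at 0.127 to 0.221 CPM in EV and 1.62 to 2.61 CPM in TAZ-CAMTA1, with Cdh5 called higher, and the summed epithelial markers at 0.310 to 0.525 and 0.688 to 0.885 CPM, with Cdh1 called higher at 1.64 (SE 0.45, edgeR adjusted p = 0.0107). Leukocyte markers were at 2.58 to 3.58 and 1.86 to 2.59 CPM, and fibroblast markers at 38287 to 44002 CPM in TAZ-CAMTA1, overlapping EV, with 2 of 8 called higher and 1 lower. Their part in the result was not tested.

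Cells with YAP-TFE3 did not pass the test for any member against EV, where 15.3% of all genes were called, 10.6% higher and 4.74% lower. Their median log2 fold change was 0.36, 44 of 45 were positive, and 1 had an unadjusted p under 0.05. DESeq2 called none. Anln, the highest, was at 97.2, 81.6 and 70.8 CPM in YAP-TFE3 against the EV values above, and all but its replicate 1 lay below EV replicate 2 (log2 fold change 0.70 (SE 0.33, edgeR adjusted p = 0.166)). Kif15, the lowest, was at 8.12, 12.6 and 7.52 CPM and overlapped EV (log2 fold change -0.02 (SE 0.41, edgeR adjusted p = 0.989)). Without EV replicate 2, 2 members were called. Cdh1 was called higher here as well, at 1.62 (SE 0.45, edgeR adjusted p = 0.0147), and so was the endothelial Cdh5, at 3.77 (SE 0.91, edgeR adjusted p = 0.00627). Both were at low levels. Cdh1 averaged 0.208 CPM in EV and 0.654 CPM in YAP-TFE3, and Cdh5 averaged 0.0147 and 0.272 CPM. The part of these markers was not tested.

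TFE3 cells were also not called for any member, where 3.38% of all genes were, 2.36% higher. Their median log2 fold change was -0.08, none had an unadjusted p under 0.05 and DESeq2 called none. Nek2, a kinase of centrosome separation, was at 11.9, 14.9 and 11.96 CPM in TFE3 and 8.40, 17.6 and 7.57 CPM in EV, which overlapped (log2 fold change 0.21 (SE 0.34, edgeR adjusted p = 0.865)). Anln was at 41.5, 41.3 and 37.8 CPM in TFE3 (log2 fold change -0.35 (SE 0.33, edgeR adjusted p = 0.726)) and lay within the range of EV. The endothelial marker Kdr was called higher in TFE3, at 3.37 (SE 0.58, edgeR adjusted p = 0.00179), with means of 0.0749 CPM in EV and 0.813 CPM in TFE3. Summed leukocyte markers were at 2.58 to 3.58 CPM in EV and 5.36 to 6.10 CPM in TFE3. The part of these markers was not tested.

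The 2 fusion proteins differed from each other in part of the members, and how many were called rested on single libraries. In TAZ-CAMTA1 against YAP-TFE3, 11 members rose and none fell, where 11.6% of all genes were called, 5.32% higher and 6.32% lower, and all 45 were positive in direction with a median log2 fold change of 0.80. The EV level is not part of this comparison, but the EV libraries are in the shared fit from which the spread was estimated. The highest was Ect2, the exchange factor that activates RhoA at the furrow, at 48.8, 71.9 and 77.7 CPM in TAZ-CAMTA1 and 22.01, 25.95 and 19.1 CPM in YAP-TFE3, with no overlap and a log2 fold change of 1.56 (SE 0.38, edgeR adjusted p = 0.00875). The lowest was Spc25, of the Ndc80 complex, at 11.2, 16.7 and 18.8 CPM and 12.1, 10.6 and 9.98 CPM, which overlapped (log2 fold change 0.52 (SE 0.37, edgeR adjusted p = 0.415)). Of the 6 genes of the central spindle and cytokinesis 5 were called. The count was 2 without TAZ-CAMTA1 replicate 2, without its replicate 3 or without YAP-TFE3 replicate 1 or 3, 5 without YAP-TFE3 replicate 2, and 40 when the fit held only these groups. Of all 14361 genes, 1671 were called with all libraries. Without TAZ-CAMTA1 replicates 2 and 3 these were 835 and 899. Without YAP-TFE3 replicates 1, 2 and 3 they were 1000, 1255 and 1229. When the fit held only these groups they were 2572.

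**Figure D4:**
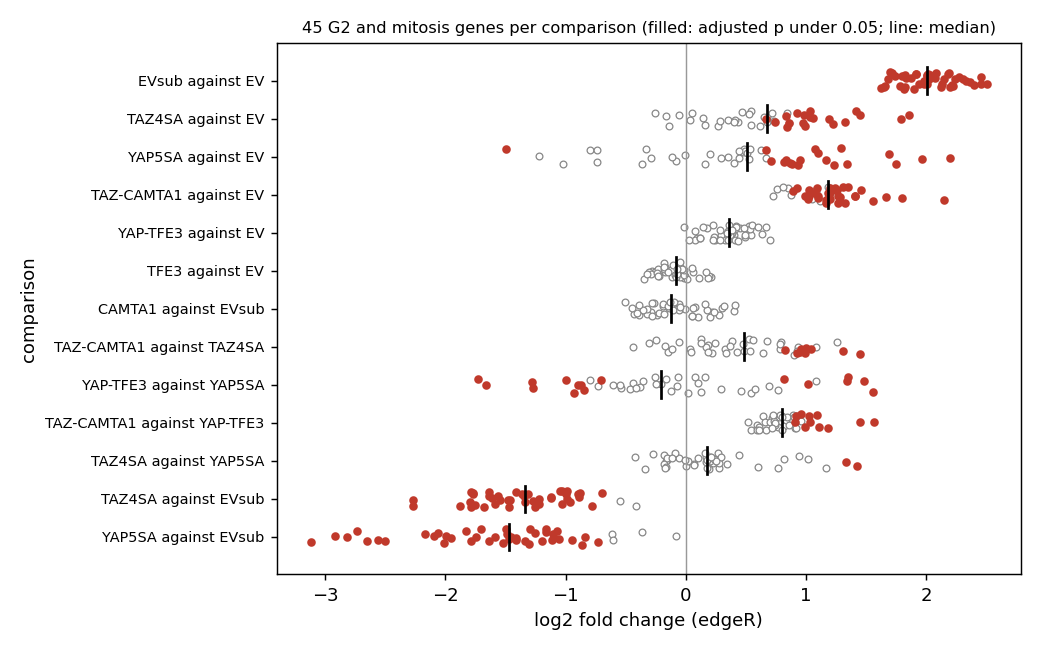
Log2 fold change (edgeR) of each of the 45 members in the 13 comparisons, 1 row per comparison. Filled points passed an adjusted p under 0.05, open points did not, and the black line is the median. The median was 2.01 in EVsub against EV, 1.18 in TAZ-CAMTA1 against EV and 0.36 in YAP-TFE3 against EV.

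Full-length TAZ4SA and YAP5SA moved part of the members. The share of members called was 42.2% in each, below that of all genes. In TAZ4SA 19 members rose and none fell against EV, where 57.5% of all genes were called, 31.1% rising and 26.4% falling. In YAP5SA 18 rose and 1, Kif15, fell, where 71.2% of all genes were called, 36.3% rising and 34.9% falling. The member medians were log2 fold changes of 0.68 and 0.51. These comparisons share the EV libraries. Nek2 was the highest in both. It was at 38.3, 44.9 and 38.1 CPM in TAZ4SA and 38.6, 49.996 and 64.6 CPM in YAP5SA, above every EV library, with log2 fold changes of 1.86 (SE 0.34, edgeR adjusted p = 8.9e-05) and 2.19 (SE 0.34, edgeR adjusted p = 6.86e-06). Ube2c was at 13.003, 28.4 and 13.2 CPM in EV, 44.1, 74.3 and 69.8 CPM in TAZ4SA and 51.5, 84.3 and 77.2 CPM in YAP5SA, again with no overlap, with log2 fold changes of 1.79 (SE 0.35, edgeR adjusted p = 0.000145) and 1.97 (SE 0.35, edgeR adjusted p = 2.88e-05). At the other end, Kif15 was at 2.41, 3.58 and 4.24 CPM in YAP5SA, below every EV library (log2 fold change -1.50 (SE 0.45, edgeR adjusted p = 0.00546)). Pbk, a mitotic kinase, was the lowest in TAZ4SA, at 6.80, 14.9 and 6.68 CPM in EV and 5.46, 4.87 and 12.9 CPM in TAZ4SA, which overlapped (log2 fold change -0.26 (SE 0.41, edgeR adjusted p = 0.609)).

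By role, all 3 anaphase and exit genes rose in both, with 3 of 6 of the cyclin and Cdk1 group, 3 of 5 mitotic kinases and 4 of 6 of the central spindle and cytokinesis in each. The chromosomal passenger complex gave 3 of 4 in TAZ4SA and 2 of 4 in YAP5SA. Spindle checkpoint genes gave 1 of 4 and none of 4, centromere and kinetochore genes 1 of 7 and 2 of 7, and spindle motors and microtubule proteins 1 of 8 and 1 of 8, beside the fall of Kif15. Without EV replicate 2 the members called were 31 rises in TAZ4SA and 28 in YAP5SA, with no fall. Without EV replicate 1 they were 10 in TAZ4SA and 11 rises with 2 falls in YAP5SA, and without EV replicate 3, 9 in TAZ4SA and 11 rises with 1 fall in YAP5SA. Without TAZ4SA replicate 3, which stood apart, 9 rose and 4 fell in TAZ4SA, and without YAP5SA replicate 3, 10 rose and 1 fell in YAP5SA. Of all 14361 genes, 8253 were called in TAZ4SA with all libraries, and 7565, 7777 and 7485 without EV replicates 1, 2 and 3. In YAP5SA these numbers were 10220, and 9645, 9801 and 9620. Without TAZ4SA replicate 3 there were 8878 in TAZ4SA, and without YAP5SA replicate 3 there were 9696 in YAP5SA.

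The genes around the members went in both directions in these cells, as all tested genes did. Of all genes 31.1% rose and 26.4% fell in TAZ4SA, and 36.3% rose and 34.9% fell in YAP5SA. The counts per list that follow stand beside these shares. Values are log2 fold changes against EV, TAZ4SA first. Of 20 S-phase genes 3 rose and 6 fell in TAZ4SA, and 4 rose and 6 fell in YAP5SA, so that the 30% that fell in each stood near the 26.4% and 34.9% of all genes. Of 19 other spindle proteins 9 rose and none fell in TAZ4SA, and 7 rose and 2 fell in YAP5SA. Inner centromere and outer kinetochore genes (27 tested) gave 11 rises and 3 falls, then 10 and 4, and centrosome genes (10 tested) 4 and 1, then 1 and 5. Condensin and cohesin genes (21) gave 3 and 3, then 4 and 9, subunits of the anaphase-promoting complex with Fzr1 (17) 3 and 2, then 7 and 4, CDK1 regulators (12) 3 and 2, then 4 and 3, and DREAM and MuvB regulators (12) 2 and 3, then 3 and 6. Pola1, of DNA polymerase alpha, fell in both, with log2 fold changes of -0.93 (SE 0.38, edgeR adjusted p = 0.0413) and -2.34 (SE 0.41, edgeR adjusted p = 2.77e-05), while Rrm1, of ribonucleotide reductase, rose by 1.90 (SE 0.23, edgeR adjusted p = 1.87e-07) in YAP5SA. Gtse1, a G2 and S phase protein listed with the CDK1 regulators, rose by 2.32 (SE 0.38, edgeR adjusted p = 2.27e-05) and 2.56 (SE 0.38, edgeR adjusted p = 3.48e-06), and Ckap2 (a spindle protein) by 2.10 (SE 0.29, edgeR adjusted p = 2.97e-06) and 1.87 (SE 0.29, edgeR adjusted p = 6.02e-06). Pttg1, securin, rose by 1.67 (SE 0.25, edgeR adjusted p = 5.99e-06) and 1.94 (SE 0.25, edgeR adjusted p = 3.76e-07), while Smc2 of condensin fell, with a log2 fold change of -1.97 (SE 0.46, edgeR adjusted p = 0.000654) in YAP5SA. Rbl2 fell in both, with log2 fold changes of -0.76 (SE 0.10, edgeR adjusted p = 2.36e-06) and -1.27 (SE 0.10, edgeR adjusted p = 5.84e-10). Among the 9 growth arrest genes tested, Cdkn1a (p21, an inhibitor of cyclin-dependent kinases) rose by 3.44 (SE 0.27, edgeR adjusted p = 1.38e-09) in TAZ4SA and 4.46 (SE 0.29, edgeR adjusted p = 1.85e-11) in YAP5SA, while Gas1 (growth arrest specific) fell, with log2 fold changes of -1.80 (SE 0.21, edgeR adjusted p = 2.4e-07) and -4.08 (SE 0.23, edgeR adjusted p = 2.66e-12). Markers of other cell types moved in the same groups. The summed leukocyte markers (1 of 3 with a mean of at least 5 counts) were at 2.58 to 3.58 CPM in EV, 12.3 to 56.1 CPM in TAZ4SA and 46.5 to 77.8 CPM in YAP5SA, and the summed endothelial markers at 0.127 to 0.221, 8.31 to 11.96 and 7.03 to 7.79 CPM. The summed epithelial markers were at 0.310 to 0.525 CPM in EV, 0.347 to 0.600 CPM in TAZ4SA, which overlapped EV, and 0.0491 to 0.190 CPM in YAP5SA. The epithelial marker Cdh1 was called lower in both, at -2.38 (SE 0.80, edgeR adjusted p = 0.0141) and -2.37 (SE 0.80, edgeR adjusted p = 0.0111). Its level was low throughout, with means of 0.208 CPM in EV, 0.0396 CPM in TAZ4SA and 0.0335 CPM in YAP5SA. The summed fibroblast markers were at 20926 to 26103 CPM in TAZ4SA and 28699 to 33453 CPM in YAP5SA, below every EV library, with 3 of 8 called lower in each, among them S100a4 at -1.998 (SE 0.23, edgeR adjusted p = 2.96e-07) in TAZ4SA and Pdgfrb at -1.999 (SE 0.13, edgeR adjusted p = 1.69e-11) in YAP5SA, where Vim was called higher at 1.19 (SE 0.15, edgeR adjusted p = 3.8e-07). Their part in these results was not tested.

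Set against sub-confluent cells, both full-length proteins left the members low. In TAZ4SA against EVsub 43 members fell and none rose, where 53.2% of all genes were called and 25.5% fell. Those not called were Nek2 and Ube2c. In YAP5SA against EVsub 41 fell and none rose, where 68.8% of all genes were called and 34.9% fell, and Nek2, Ube2c, Aurka and Cdc20 did not pass. The member medians were log2 fold changes of -1.34 and -1.47. Nek2 was nearest to the sub-confluent level, with 51.7, 85.97 and 23.7 CPM in EVsub, within the range of which all YAP5SA libraries fell (log2 fold change -0.08 (SE 0.32, edgeR adjusted p = 0.839) in YAP5SA and -0.42 (SE 0.32, edgeR adjusted p = 0.290) in TAZ4SA). Kif15 was farthest in YAP5SA, with every library below every EVsub library (log2 fold change -3.12 (SE 0.45, edgeR adjusted p = 2.99e-06)). In TAZ4SA the farthest were Nuf2, of the Ndc80 complex, and Pbk, at -2.27 and -2.27. Without EVsub replicate 3 the falls were 45 in TAZ4SA and 44 in YAP5SA, and without EVsub replicate 2, which was the highest, 26 and 31. All genes called numbered 7203 in TAZ4SA and 9486 in YAP5SA without EVsub replicate 3, and 7098 and 9616 without EVsub replicate 2. Construct and density differ together in these comparisons.

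Each fusion protein was also compared with the full-length protein it derives from. In TAZ-CAMTA1 against TAZ4SA 9 members rose and none fell, where 54.7% of all genes were called and 26.6% were higher. They were Pbk, Nuf2, Kif15, Ccna2, Spc25, Spc24, Ect2, Anln and Ttk. Pbk was at 17.999, 22.97 and 23.8 CPM in TAZ-CAMTA1, above every TAZ4SA library (log2 fold change 1.45 (SE 0.40, edgeR adjusted p = 0.00439)). Ube2c was the lowest, at 37.4, 50.1 and 51.1 CPM, overlapping TAZ4SA (log2 fold change -0.44 (SE 0.33, edgeR adjusted p = 0.269)). Without TAZ4SA replicate 3, 26 members rose, and without TAZ4SA replicate 1 or 2, or TAZ-CAMTA1 replicate 3, 2 did. It was 4 without TAZ-CAMTA1 replicate 2 and 14 without its replicate 1. All genes called numbered 7854 with all libraries, 8658 without TAZ4SA replicate 3, and 6832 and 6697 without TAZ4SA replicates 1 and 2. Without TAZ-CAMTA1 replicates 1, 2 and 3 they numbered 7044, 6949 and 6910.

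In YAP-TFE3 against YAP5SA the members divided. Of them 6 were higher and 10 lower in YAP-TFE3, where 70.9% of all genes were called, 36.4% higher and 34.5% lower. The higher genes were Cenpf, Kif15, Cenpe, Aspm, Kif11 and Nuf2. The lower genes were Ube2c, Nek2, Aurka, Cdc20, Ccnb2, Prc1, Tpx2, Espl1, Kif20a and Cenpa. Cenpf, a large kinetochore protein, was at 40.02, 50.1 and 24.8 CPM in YAP-TFE3 and 10.8, 10.8 and 17.8 CPM in YAP5SA, with no overlap (log2 fold change 1.55 (SE 0.61, edgeR adjusted p = 0.0263)). Ube2c was at 21.4, 22.8 and 19.9 CPM in YAP-TFE3, below every YAP5SA library (log2 fold change -1.73 (SE 0.34, edgeR adjusted p = 0.000114)). With counts corrected for GC content in each library, 2 were higher and 12 lower, and without YAP5SA replicate 1 or 2, or YAP-TFE3 replicate 2, 2 were higher and 9 to 11 lower. Without YAP5SA replicate 3, 7 were higher and 7 lower. Of all 14361 genes, 10184 were called with all libraries and 10243 with the GC correction. Without YAP5SA replicates 1, 2 and 3 these were 9662, 9652 and 9678, and without YAP-TFE3 replicate 2 they were 9592. TAZ4SA and YAP5SA differed in 2 members, Cenpe and Kif15, both higher in TAZ4SA, where 42.4% of all genes were called, 22.8% higher and 19.6% lower. Cenpe was at 13.5, 10.5 and 80.7 CPM in TAZ4SA and 11.3, 11.3 and 17.04 CPM in YAP5SA, and only TAZ4SA replicate 3 lay above the range of YAP5SA (log2 fold change 1.42 (SE 0.56, edgeR adjusted p = 0.0436)). Without that replicate the log2 fold change was -0.12 and no member was called. Cdc20 was the lowest, at 55.96, 87.2 and 83.3 CPM in TAZ4SA and 90.3, 86.5 and 127 CPM in YAP5SA (log2 fold change -0.43 (SE 0.32, edgeR adjusted p = 0.291)).

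How the members ranked within a comparison went with the base composition of their transcripts, and also with their length, in some groups. Across the 45 members, the Spearman correlation of the log2 fold change with the GC content of the longest coding transcript was 0.67 in YAP5SA against EV, 0.56 in TAZ4SA against EV and 0.58 in EVsub against EV, and 0.06 in TAZ-CAMTA1 against EV and -0.07 in YAP-TFE3 against EV. It was -0.75 in CAMTA1 against EVsub and -0.68 in YAP-TFE3 against YAP5SA. Over the 12311 tested genes with a coding transcript the same correlation was 0.24 in YAP5SA, 0.15 in TAZ4SA and -0.32 in CAMTA1 against EVsub. With the length of the same transcript, the members' correlation was -0.44 in YAP5SA, -0.34 in TAZ4SA and -0.41 in EVsub against EV. It was -0.0055 in TAZ-CAMTA1 and -0.14 in YAP-TFE3 against EV, 0.63 in CAMTA1 against EVsub and 0.42 in YAP-TFE3 against YAP5SA. GC content and length were not tested apart. These are descriptions across genes of the same libraries. In the 15 members lowest in GC (40.1 to 44.2%) the median log2 fold change in YAP5SA was -0.12, with 1 rise and 1 fall, and in the 15 highest in GC (49.3 to 56.1%) it was 0.88 with 11 rises. In TAZ-CAMTA1 the same medians were 1.18 and 1.21. The libraries differed in the same property over all genes. Log2 CPM relative to the mean rose by 0.36 to 0.48 for every 10 points of GC in the YAP5SA libraries, by 0.16, 0.43 and -0.08 in TAZ4SA replicates 1, 2 and 3, and by -0.19 to -0.01 in EV. With a GC correction in each library, chosen after seeing the data, the medians of the same 15 lowest and 15 highest members in YAP5SA were 0.29 and 0.59, and 16 members rose and 1 fell. The same correction gave 45 rises in EVsub against EV, 19 in TAZ4SA and 36 in TAZ-CAMTA1 against EV. Of all 14361 genes it called 10272 in YAP5SA, 3679 in EVsub, 8597 in TAZ4SA and 3698 in TAZ-CAMTA1 against EV.

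**Figure D5:**
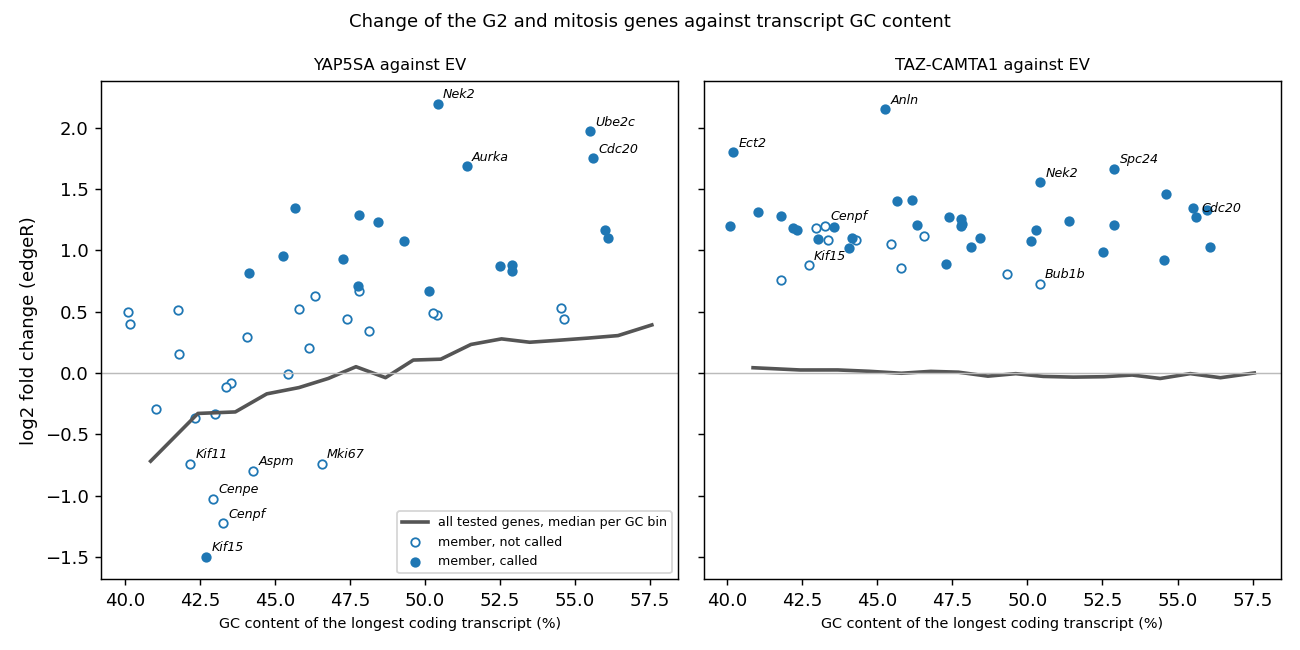
Log2 fold change of the 45 members (blue, filled where called) against the GC content of the longest coding transcript, in YAP5SA against EV (left) and TAZ-CAMTA1 against EV (right). The grey line is the median of all tested genes in bins of GC. The members' Spearman correlation was 0.67 on the left and 0.06 on the right.

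Single calls rested on single libraries to different degrees. With each library left out in turn, 42 of 45 members stayed called in EVsub, all but Cenpe, Cenpf and Mki67. In TAZ-CAMTA1 13 of 34 did, namely Cdk1, Cdc25c, Foxm1, Nek2, Mad2l1, Cdc20, Ube2c, Spc24, Tpx2, Prc1, Anln, Ect2 and Racgap1, and each of the others lost its call without EV replicate 1 and without EV replicate 3. In TAZ4SA 8 of 19 did, namely Aurka, Nek2, Cdc20, Ube2c, Cenpa, Tpx2, Prc1 and Anln, and the others, apart from Racgap1, lost theirs without TAZ4SA replicate 3. In YAP5SA 10 of 19 did, namely Ccnb2, Plk1, Aurka, Nek2, Cdc20, Ube2c, Cenpa, Tpx2, Kif20a and Prc1, and the fall of Kif15 was lost without EV replicate 2. In the other comparisons 2 of 9 did in TAZ-CAMTA1 against TAZ4SA (Pbk and Nuf2), 9 of 16 in YAP-TFE3 against YAP5SA, 2 of 11 in TAZ-CAMTA1 against YAP-TFE3 (Anln and Ect2) and none in TAZ4SA against YAP5SA.

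The engine of mitotic entry followed the pattern of the whole set. Rises and changes given here for single members are log2 fold changes against EV unless another group is named. Cdk1, the kinase itself, was at 35.4, 61.8 and 37.9 CPM in EV, 144, 211 and 69.2 CPM in EVsub and 162, 123 and 111 CPM in CAMTA1. It was at 87.004, 119 and 116 CPM in TAZ-CAMTA1, 60.4, 56.4 and 55.2 CPM in YAP-TFE3 and 44.1, 42.8 and 43.9 CPM in TFE3, and at 45.99, 71.4 and 89.8 CPM in TAZ4SA and 63.6, 66.7 and 90.3 CPM in YAP5SA. The TAZ-CAMTA1 and YAP5SA libraries lay above every EV library, and the other confluent groups overlapped EV. Against EV the log2 fold change of Cdk1 was 1.65 (SE 0.29, edgeR adjusted p = 0.000379) in EVsub, 1.26 (SE 0.29, edgeR adjusted p = 0.00319) in TAZ-CAMTA1, 0.71 (SE 0.29, edgeR adjusted p = 0.0333) in YAP5SA and 0.62 (SE 0.29, edgeR adjusted p = 0.0722) in TAZ4SA. Ccnb1, the B-type cyclin that activates it, was at 14.4, 29.3 and 15.1 CPM in EV, 92.1, 142 and 40.5 CPM in EVsub and 99.6, 71.7 and 68.95 CPM in CAMTA1. It was at 33.1, 46.7 and 45.8 CPM in TAZ-CAMTA1, 25.8, 25.2 and 24.1 CPM in YAP-TFE3, 20.7, 19.7 and 17.8 CPM in TFE3, 29.9, 32.8 and 52.2 CPM in TAZ4SA and 28.6, 29.9 and 44.98 CPM in YAP5SA. It rose in EVsub by 2.23 (SE 0.33, edgeR adjusted p = 8.47e-05), in TAZ-CAMTA1 by 1.10 (SE 0.33, edgeR adjusted p = 0.0189), in TAZ4SA by 0.97 (SE 0.33, edgeR adjusted p = 0.0149) and in YAP5SA by 0.82 (SE 0.33, edgeR adjusted p = 0.0312). Foxm1, the transcription factor that works with MuvB on these promoters, was at 29.9, 54.1 and 32.6 CPM in EV, 133, 237 and 62.9 CPM in EVsub and 152, 119 and 99.1 CPM in CAMTA1. It was at 81.8, 120.3 and 118 CPM in TAZ-CAMTA1, 52.2, 51.9 and 46.6 CPM in YAP-TFE3, 34.8, 35.1 and 33.02 CPM in TFE3, 43.2, 50.3 and 92.1 CPM in TAZ4SA and 49.1, 41.5 and 68.04 CPM in YAP5SA. Foxm1 rose in TAZ-CAMTA1 against EV (1.46 (SE 0.34, edgeR adjusted p = 0.00361)) and against YAP-TFE3 (1.09 (SE 0.34, edgeR adjusted p = 0.0386)), while TAZ4SA (log2 fold change 0.68 (SE 0.34, edgeR adjusted p = 0.0938)) and YAP5SA (log2 fold change 0.44 (SE 0.34, edgeR adjusted p = 0.247)) did not pass. Ccna2, Ccnb2 and Cdc25c, the phosphatase that activates Cdk1, had log2 fold changes in TAZ-CAMTA1 of 1.41, 0.81 and 1.21, of which that of Ccnb2 did not pass. Exons of Ccna2 overlap those of Exosc9 on the opposite strand.

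Among the kinases, Plk1, which acts at centrosomes, kinetochores and the midzone, was at 10.1, 19.7 and 10.1 CPM in EV, 59.6, 127 and 31.6 CPM in EVsub and 62.9, 49.02 and 48.7 CPM in CAMTA1. It was at 26.5, 35.2 and 38.3 CPM in TAZ-CAMTA1, 17.6, 17.3 and 16.5 CPM in YAP-TFE3, 11.3, 12.2 and 9.24 CPM in TFE3, 14.8, 25.8 and 38.7 CPM in TAZ4SA and 25.7, 27.2 and 36.4 CPM in YAP5SA. TAZ-CAMTA1 and YAP5SA lay above EV in every library, with log2 fold changes of 1.33 (SE 0.37, edgeR adjusted p = 0.0120) and 1.16 (SE 0.37, edgeR adjusted p = 0.00774). Aurka, the centrosomal Aurora kinase, was at 10.1, 19.3 and 10.8 CPM in EV, 56.9, 114 and 27.5 CPM in EVsub and 66.2, 45.2 and 40.2 CPM in CAMTA1. It was at 27.4, 32.8 and 34.6 CPM in TAZ-CAMTA1, 16.6, 18.9 and 17.7 CPM in YAP-TFE3, 10.5, 11.99 and 11.1 CPM in TFE3, 23.7, 36.3 and 46.9 CPM in TAZ4SA and 36.7, 39.3 and 53.5 CPM in YAP5SA. Each TAZ-CAMTA1, TAZ4SA and YAP5SA library was above each EV library, and the rises were 1.24 (SE 0.35, edgeR adjusted p = 0.0134), 1.41 (SE 0.35, edgeR adjusted p = 0.00164) and 1.69 (SE 0.35, edgeR adjusted p = 0.000207). Aurka was lower in YAP-TFE3 than in YAP5SA, with a log2 fold change of -1.28 (SE 0.35, edgeR adjusted p = 0.00235). Melk, a kinase of the same period of the cycle, did not pass in TAZ-CAMTA1 (log2 fold change 0.85 (SE 0.34, edgeR adjusted p = 0.0823)).

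Of the spindle checkpoint genes 3 of 4 rose in TAZ-CAMTA1. Bub1, the kinetochore kinase, was at 8.57, 22.97 and 10.9 CPM in EV, 63.1, 67.03 and 24.8 CPM in EVsub and 82.5, 59.1 and 49.4 CPM in CAMTA1. It was at 25.6, 38.6 and 40.8 CPM in TAZ-CAMTA1, 18.8, 21.7 and 15.3 CPM in YAP-TFE3, 14.2, 18.9 and 15.3 CPM in TFE3, 12.4, 10.1 and 37.5 CPM in TAZ4SA and 8.88, 12.6 and 13.1 CPM in YAP5SA. Bub1 rose in TAZ-CAMTA1 (1.31 (SE 0.42, edgeR adjusted p = 0.0267)), and in YAP5SA its log2 fold change was -0.29 (SE 0.43, edgeR adjusted p = 0.547), with the libraries inside the range of EV. Ttk, the kinase that starts checkpoint signalling, and Mad2l1, which binds Cdc20, rose in TAZ-CAMTA1 by 1.09 (SE 0.35, edgeR adjusted p = 0.0258) and 1.20 (SE 0.26, edgeR adjusted p = 0.00213). Cdc20, which the checkpoint restrains and whose promoter is printed above, was at 23.4, 41.7 and 25.2 CPM in EV, 133, 265 and 64.5 CPM in EVsub and 129, 115 and 100.4 CPM in CAMTA1. It was at 58.97, 78.4 and 80.2 CPM in TAZ-CAMTA1, 43.8, 42.8 and 39.6 CPM in YAP-TFE3 and 25.3, 28.99 and 21.3 CPM in TFE3. Cdc20 rose in TAZ-CAMTA1 by 1.27 (SE 0.32, edgeR adjusted p = 0.00663), in TAZ4SA by 1.33 (SE 0.32, edgeR adjusted p = 0.00140) and in YAP5SA by 1.75 (SE 0.33, edgeR adjusted p = 5.76e-05), with no overlap with EV. Espl1, separase, which cleaves cohesin, rose by 1.02 (SE 0.34, edgeR adjusted p = 0.0345), 0.99 (SE 0.34, edgeR adjusted p = 0.0175) and 1.10 (SE 0.34, edgeR adjusted p = 0.00670) in the same order. A short stretch of Cdc20 exon overlaps Elovl1 on the opposite strand.

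At centromeres and kinetochores, Cenpa, the centromeric histone H3, was at 18.7, 28.6 and 19.2 CPM in EV, 75.8, 146 and 44.2 CPM in EVsub and 70.2, 68.01 and 62.95 CPM in CAMTA1. It was at 37.1, 42.996 and 42.9 CPM in TAZ-CAMTA1, 25.2, 29.1 and 23.4 CPM in YAP-TFE3, 19.04, 20.4 and 17.5 CPM in TFE3, 32.000, 50.3 and 53.8 CPM in TAZ4SA and 37.8, 42.1 and 46.8 CPM in YAP5SA. It rose in TAZ-CAMTA1 by 0.89 (SE 0.27, edgeR adjusted p = 0.0220), in TAZ4SA by 1.03 (SE 0.27, edgeR adjusted p = 0.00273) and in YAP5SA by 0.93 (SE 0.27, edgeR adjusted p = 0.00443). Ndc80, the microtubule-binding subunit of its complex, was at 6.71, 15.2 and 6.81 CPM in EV, 39.04, 44.8 and 17.2 CPM in EVsub and 41.6, 33.7 and 29.2 CPM in CAMTA1. It was at 15.4, 20.1 and 22.5 CPM in TAZ-CAMTA1, 13.4, 13.5 and 11.5 CPM in YAP-TFE3, 8.36, 11.2 and 10.1 CPM in TFE3, 12.01, 7.57 and 21.7 CPM in TAZ4SA and 9.50, 11.5 and 14.2 CPM in YAP5SA. Ndc80 rose in TAZ-CAMTA1 by 1.02 (SE 0.35, edgeR adjusted p = 0.0392), and in TAZ4SA (0.54 (SE 0.35, edgeR adjusted p = 0.191)) and YAP5SA (0.29 (SE 0.35, edgeR adjusted p = 0.463)) it did not pass. Its partners Nuf2, Spc24 and Spc25 had log2 fold changes in TAZ-CAMTA1 of 1.16, 1.67 and 1.05, of which that of Spc25 did not pass, and in YAP5SA of -0.37, 0.88 and -0.01, of which that of Spc24 did pass. The large kinetochore proteins Cenpe and Cenpf did not pass in TAZ-CAMTA1 (log2 fold changes 1.18 (SE 0.53, edgeR adjusted p = 0.121) and 1.20 (SE 0.58, edgeR adjusted p = 0.147)) or in YAP5SA (-1.03 (SE 0.56, edgeR adjusted p = 0.103) and -1.22 (SE 0.60, edgeR adjusted p = 0.0752)). In TAZ4SA, Cenpf was at 8.48, 7.72 and 70.4 CPM against 18.3, 52.8 and 20.7 CPM in EV, so that replicates 1 and 2 lay below EV and replicate 3 above it.

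In the chromosomal passenger complex, Aurkb, its kinase, was at 10.6, 24.02 and 12.3 CPM in EV, 57.03, 101 and 26.3 CPM in EVsub and 61.3, 47.4 and 42.5 CPM in CAMTA1. It was at 24.5, 33.4 and 34.7 CPM in TAZ-CAMTA1, 14.8, 18.9 and 17.7 CPM in YAP-TFE3, 13.5, 15.6 and 13.1 CPM in TFE3, 20.2, 27.8 and 36.6 CPM in TAZ4SA and 22.02, 26.004 and 37.5 CPM in YAP5SA. Aurkb rose in TAZ-CAMTA1 by 0.99 (SE 0.35, edgeR adjusted p = 0.0465), in TAZ4SA by 0.86 (SE 0.35, edgeR adjusted p = 0.0409) and in YAP5SA by 0.87 (SE 0.35, edgeR adjusted p = 0.0313). Birc5 was at 68.7, 49.5 and 44.8 CPM in CAMTA1, 21.8, 29.6 and 27.6 CPM in TAZ-CAMTA1, 17.95, 15.7 and 14.4 CPM in YAP-TFE3 and 11.5, 9.83 and 10.3 CPM in TFE3. It was at 16.3, 11.2 and 26.5 CPM in TAZ4SA and 13.96, 13.2 and 17.5 CPM in YAP5SA. The TAZ-CAMTA1 libraries lay above those of EV (log2 fold change 1.27 (SE 0.35, edgeR adjusted p = 0.0117)), and YAP5SA overlapped EV (0.44 (SE 0.36, edgeR adjusted p = 0.268)). The scaffold Incenp and borealin (Cdca8) rose in TAZ-CAMTA1 by 0.92 (SE 0.29, edgeR adjusted p = 0.0232) and 1.21 (SE 0.33, edgeR adjusted p = 0.0115). Exons of Cdca8 overlap a gene on the opposite strand.

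Among the spindle proteins, Kif11, the kinesin that pushes the poles apart, was at 18.2, 40.3 and 20.3 CPM in EV, 126, 126 and 44.9 CPM in EVsub and 138, 104 and 89.7 CPM in CAMTA1. It was at 43.97, 66.2 and 68.3 CPM in TAZ-CAMTA1, 29.7, 38.5 and 27.4 CPM in YAP-TFE3, 23.2, 25.8 and 25.9 CPM in TFE3, 18.3, 16.5 and 59.9 CPM in TAZ4SA and 14.1, 14.7 and 18.6 CPM in YAP5SA. Kif11 rose in TAZ-CAMTA1 by 1.18 (SE 0.40, edgeR adjusted p = 0.0381) and did not pass in YAP5SA (-0.74 (SE 0.41, edgeR adjusted p = 0.114)), where 1 library lay above the lowest EV library. Tpx2, which activates Aurora A on the spindle, rose in TAZ4SA by 1.45 (SE 0.29, edgeR adjusted p = 0.000233), in YAP5SA by 1.29 (SE 0.29, edgeR adjusted p = 0.000486) and in TAZ-CAMTA1 by 1.20 (SE 0.29, edgeR adjusted p = 0.00466). Kif2c, a microtubule depolymerase, Kif4, a chromokinesin, and Hmmr, a spindle protein, rose in TAZ-CAMTA1 by 1.16 (SE 0.35, edgeR adjusted p = 0.0183), 1.03 (SE 0.32, edgeR adjusted p = 0.0242) and 1.28 (SE 0.37, edgeR adjusted p = 0.0146), and none of them passed in TAZ4SA or YAP5SA. Aspm, of spindle poles, and Nusap1 did not pass in these groups, with log2 fold changes in YAP5SA of -0.80 (SE 0.43, edgeR adjusted p = 0.104) and 0.16 (SE 0.35, edgeR adjusted p = 0.700). Exons of Kif4 and Nusap1 overlap Pdzd11 and Oip5 on the opposite strand.

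For the central spindle, Prc1, which bundles its microtubules, was at 23.7, 47.5 and 22.96 CPM in EV, 131, 198 and 65.8 CPM in EVsub and 164, 112 and 102 CPM in CAMTA1. It was at 63.5, 89.6 and 95.7 CPM in TAZ-CAMTA1, 44.9, 40.7 and 39.3 CPM in YAP-TFE3, 26.7, 26.8 and 26.3 CPM in TFE3, 64.05, 67.5 and 82.7 CPM in TAZ4SA and 66.4, 72.4 and 99.8 CPM in YAP5SA. Prc1 rose in TAZ-CAMTA1 by 1.40 (SE 0.30, edgeR adjusted p = 0.00168), in TAZ4SA by 1.19 (SE 0.30, edgeR adjusted p = 0.00182) and in YAP5SA by 1.34 (SE 0.30, edgeR adjusted p = 0.000417), above EV in every library. Anln, for which EV, TAZ-CAMTA1, YAP-TFE3 and TFE3 values stand above, was at 105, 98.4 and 154 CPM in TAZ4SA, 79.7, 99.5 and 118 CPM in YAP5SA, 221, 293 and 102 CPM in EVsub and 315, 206 and 186 CPM in CAMTA1, and in TAZ-CAMTA1 it lay within the range of EVsub. Kif20a, a midzone kinesin, and the centralspindlin subunits Kif23 and Racgap1 rose in TAZ-CAMTA1 by 1.10 (SE 0.32, edgeR adjusted p = 0.0169), 1.21 (SE 0.35, edgeR adjusted p = 0.0153) and 1.07 (SE 0.26, edgeR adjusted p = 0.00506). Exons of Kif20a overlap Cdc23 and those of Prc1 overlap Rccd1, on the opposite strand.

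Of the chromosome structure genes, Top2a, the DNA topoisomerase that untangles sister chromatids, was at 69.996, 183 and 75.9 CPM in EV, 449, 536 and 186 CPM in EVsub and 501, 379.9 and 341 CPM in CAMTA1. It was at 180.1, 240.1 and 275 CPM in TAZ-CAMTA1, 142, 153 and 120.2 CPM in YAP-TFE3, 97.3, 109.6 and 102 CPM in TFE3, 56.4, 96.4 and 213 CPM in TAZ4SA and 77.6, 99.6 and 126 CPM in YAP5SA. Top2a rose in EVsub by 1.83 (SE 0.41, edgeR adjusted p = 0.00250) and did not pass in TAZ-CAMTA1 (1.08 (SE 0.40, edgeR adjusted p = 0.0562)), where EV replicate 2 lay above 1 library. Mki67, which codes for the proliferation marker Ki-67, was at 61.9, 147 and 66.4 CPM in EV, 376, 444 and 152 CPM in EVsub and 498, 372 and 338 CPM in CAMTA1. It was at 148, 198 and 250.3 CPM in TAZ-CAMTA1, 112, 149 and 88.96 CPM in YAP-TFE3, 94.004, 116 and 102 CPM in TFE3, 42.9, 34.8 and 203 CPM in TAZ4SA and 42.9, 52.7 and 69.6 CPM in YAP5SA. Mki67 rose in EVsub by 1.82 (SE 0.49, edgeR adjusted p = 0.00992), and neither TAZ-CAMTA1 (1.12 (SE 0.48, edgeR adjusted p = 0.104)) nor YAP5SA (-0.74 (SE 0.48, edgeR adjusted p = 0.176)) passed. In TAZ4SA, replicates 1 and 2 lay below every EV library and replicate 3 above, with a log2 fold change of 0.03 (SE 0.48, edgeR adjusted p = 0.960), which was -1.24 without replicate 3.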

How the data were processed

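RNA-Seq libraries of polyadenylated RNA were prepared with a stranded kit, sequenced as paired ends on an Illumina HiSeq and processed by the authors with bcbio-nextgen and Hisat2 on mm10. The deposited values are raw counts, whole numbers per Ensembl gene and library without normalization. The counting program and its use of strand are not given in the sources used here, so genes whose exons overlap on opposite strands may share reads. The methods also name Salmon and tximport for gene-level counts and DESeq2 for the authors' tests, and whether the deposited counts are those is not given. Groups and replicate numbers came from the titles of the 24 libraries. The description of YAP-TFE3 replicate 3 names replicate 2, and the title was used.

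Symbols and coordinates were taken from GENCODE M21, which matched 37693 of 39017 identifiers, and promoters from RefSeq. The 14361 genes that averaged 5 counts or more were TMM-normalized and tested with edgeR 4.0.16 (R 4.3.3, quasi-likelihood test, all libraries in one fit), with Benjamini-Hochberg adjustment over all of them and calls at 0.05. Positions in a promoter were counted from the start, with the base before it as -1. The tests were tested on simulated data. Alternatives were DESeq2 1.42.0, its size factors, the 24737 genes left without a filter, the 11461 genes with 10 or more counts throughout, a block for replicate number, a fit restricted to the compared groups, leaving out each library and, added after seeing the data, a correction for GC content in 20 bins per library. Tables were made with pandas 2.3.3 in Python 3.11.15 and figures with matplotlib 3.10.9. The members, the lists of genes around them and the tests were chosen with earlier results of these data known. A marker of the leukocyte list is not reported here. Named by rule were the members by role, with values in every library for 15 of them and for the highest and lowest member of each comparison, and of each list the genes with the largest rise and fall among those called; some of the latter are named here. Library totals of 16471181 to 30132586 counts limit the precision of the lower members, the lowest of which had 42 counts in 1 library.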

Additional observations from a re-analysis of the deposited data

How the results depend on the processing

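Counts of members called are given for the alternatives that moved them by over 1.5 times. Without a filter on low counts they were 2 in YAP-TFE3 against EV, 21 in TAZ-CAMTA1 against TAZ4SA, 33 in TAZ-CAMTA1 against YAP-TFE3 and 7 in TAZ4SA against YAP5SA. With the fit restricted to the compared groups they were 5 in TAZ-CAMTA1 against TAZ4SA, 30 in YAP-TFE3 against YAP5SA, 40 in TAZ-CAMTA1 against YAP-TFE3, 0 in TAZ4SA against YAP5SA and 25 in TAZ4SA against EVsub. TAZ4SA against YAP5SA gave 1 call with DESeq2 and 0 with the GC correction. Without the filter, all genes called in the same order were 2426, 7735, 1977 and 5873 of 24737. With the restricted fit they were, in the same order, 5491, 10275, 2572, 2910 and 4105 of 14361. In TAZ4SA against YAP5SA they were 6287 with DESeq2 and 5913 with the GC correction. The cause of these differences was not tested.

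With 1 library left out, the calls ranged from 42 to 45 in EVsub against EV, from 9 to 31 in TAZ4SA, 11 to 28 in YAP5SA, 13 to 45 in TAZ-CAMTA1 and 0 to 2 in YAP-TFE3 against EV. They ranged from 2 to 26 in TAZ-CAMTA1 against TAZ4SA, 11 to 14 in YAP-TFE3 against YAP5SA, 2 to 12 in TAZ-CAMTA1 against YAP-TFE3, 0 to 7 in TAZ4SA against YAP5SA, 26 to 45 in TAZ4SA against EVsub and 31 to 44 in YAP5SA against EVsub, and were 0 throughout in TFE3 against EV and CAMTA1 against EVsub. Calls over all genes ranged from 1971 to 3668 in EVsub against EV, 7485 to 8878 in TAZ4SA and 9620 to 9801 in YAP5SA against EV. The range was 2010 to 3198 in TAZ-CAMTA1 and 1133 to 2266 in YAP-TFE3 against EV. Between TAZ4SA and YAP5SA it was 4656 to 7210, and in YAP-TFE3 against YAP5SA 9592 to 9775. Without TAZ4SA replicate 3, Cenpe and Mki67 were lower in TAZ4SA than in EV (log2 fold changes -1.15 and -1.24, edgeR adjusted p = 0.027 and 0.0091), and the difference of Cenpe from YAP5SA was -0.12. With 1 library left out these log2 fold changes ranged up to 0.97 for Cenpe and 0.55 for Mki67 against EV and up to 1.84 for Cenpe against YAP5SA.

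The replicate numbers did not pair the libraries. Same-numbered libraries of 2 groups gave correlations of their deviations from -0.21 to 0.41 over 39 pairs, 9 of them over 0.1, and no comparison had all of its pairs over 0.1. With the replicate block the count in TAZ4SA against YAP5SA was 1, and no other comparison moved by over 1.5 times.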
